A study of Mus musculus with 4 samples.

Results

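The genes described here encode potassium channel subunits and their dedicated partners, taken as every gene whose symbol begins with Kcn in the platform annotation, apart from the non-coding RNA gene Kcnq1ot1. The annotation placed 95 probe sets on 92 such genes, of 19938 genes with 1 symbol in all, and for the 3 genes with more than 1 probe set the one with the highest mean over the arrays was taken. The genes include 3 antisense RNAs, Kcnd3os, Kcnmb4os1 and Kcnmb4os2. The study hybridized RNA from fetuses of C57BL/6J dams, taken at embryonic day 18, to 4 Affymetrix arrays, so that every combination of tissue and treatment has a single array. The groups were hippocampus after maternal ethanol, hippocampus after maternal phosphate-buffered saline (PBS), forebrain after ethanol and forebrain after PBS. Dams received the ethanol, diluted to 15%, into the stomach on 5 days, embryonic days 8 to 12, with a daily dose of 2.9 g per kg, and PBS dams were dosed on the same days. The labels give no litter, no sex and no statement on pooling of fetuses, so differences between litters cannot be told apart from ethanol. Of the 92 genes, 54 had a mean at or above the expression filter of 7.11, the median of all probe set means on the log2 scale, against 11013 of all 19938 genes.

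Potassium channels let potassium ions leave a cell and so set its resting potential, shorten the action potential and limit repetitive firing. Voltage-gated (Kv) channels are built from pore subunits that open on depolarization, together with silent subunits and cytoplasmic or membrane partners that change their gating. Calcium- and sodium-activated channels couple firing to ion entry, inward rectifiers (Kir) hold the membrane near rest, and K2P channels, named for the pair of pore domains in each subunit, carry leak current. In the fetal forebrain many of these genes are switched on as neurons mature, and some Kir channels belong to glia, vessels or the choroid plexus instead.

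Every array had its median over all probe sets between 7.11 and 7.13. Over the 11013 genes that passed the filter the median was 8.57 in hippocampus after ethanol and 8.67 in hippocampus after PBS, 8.66 in forebrain after ethanol and 8.68 in forebrain after PBS. The small number of arrays limits how precisely any value is known. Hippocampal field markers were divided between the tissues. Of the 9, 4 were higher and 5 lower in hippocampus than in forebrain after ethanol, and 5 and 4 after PBS. Nrp2 was the lowest, at -0.48 after ethanol and -0.85 after PBS, and Zbtb20 the highest, at 0.23 and 0.35. Their mean log2 level was 8.35 in hippocampus and 8.43 in forebrain after ethanol. After PBS it was 8.37 in hippocampus and 8.41 in forebrain. Nrp2 weighs on these means, so they do not settle how far the tissues differ. Several cell type markers differed between the hippocampus arrays, counted over the marker genes above the filter. Markers of striatal projection neurons were higher after ethanol for 9 of 9 genes (mean level 9.29 after ethanol and 8.85 after PBS), thalamic markers for 6 of 7 (8.43 and 7.96) and meningeal markers for 5 of 6 (8.06 and 7.72). Those of excitatory cortical neurons were lower for 6 of 7 (9.64 and 10.05) and those of the choroid plexus for 6 of 6 (8.28 and 8.60). The general neuron markers were divided, with 4 higher and 5 lower (8 and 1 once arrays were centred on their medians). In such tissue RNA fewer cells of a type and less RNA per cell cannot be told apart.

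After maternal ethanol, 21 of the 54 potassium channel genes read higher and 33 lower in hippocampus, with a median difference of -0.08 on the log2 scale, against a median of -0.08 for all 11013 genes, of which 69.3% were lower. The channel genes as a set thus had the median of the whole array. With each array centred on its median the counts became 31 higher and 23 lower, with a median of 0.02. Of all genes 56.4% were then higher, also with a median of 0.02. After quantile normalization 26 members were higher and 27 lower, where 45.1% of all genes were higher. Single members stood well outside the centre of the distribution, as the plot of ethanol differences shows. The inward rectifier gene Kcnj13 was 1.5-fold or more lower and no member was 1.5-fold higher, where 0.427% of all genes were that much lower and 0.49% that much higher. Centring each array raised the count of 1.5-fold higher members to 2, Kcnd2 and Kcnt1, as did quantile normalization. The share of all genes 1.5-fold higher went up as well, from 0.49% to 1.05% with arrays centred. It was also above 0.49% after quantile normalization. Past 0.32 on the log2 scale, 2 members were higher and 5 lower, which is 3.70% and 9.26% of the 54, where 3.17% and 5.95% of all genes were past it. Without a repeat array there is no test within a tissue.

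**Figure D1:**
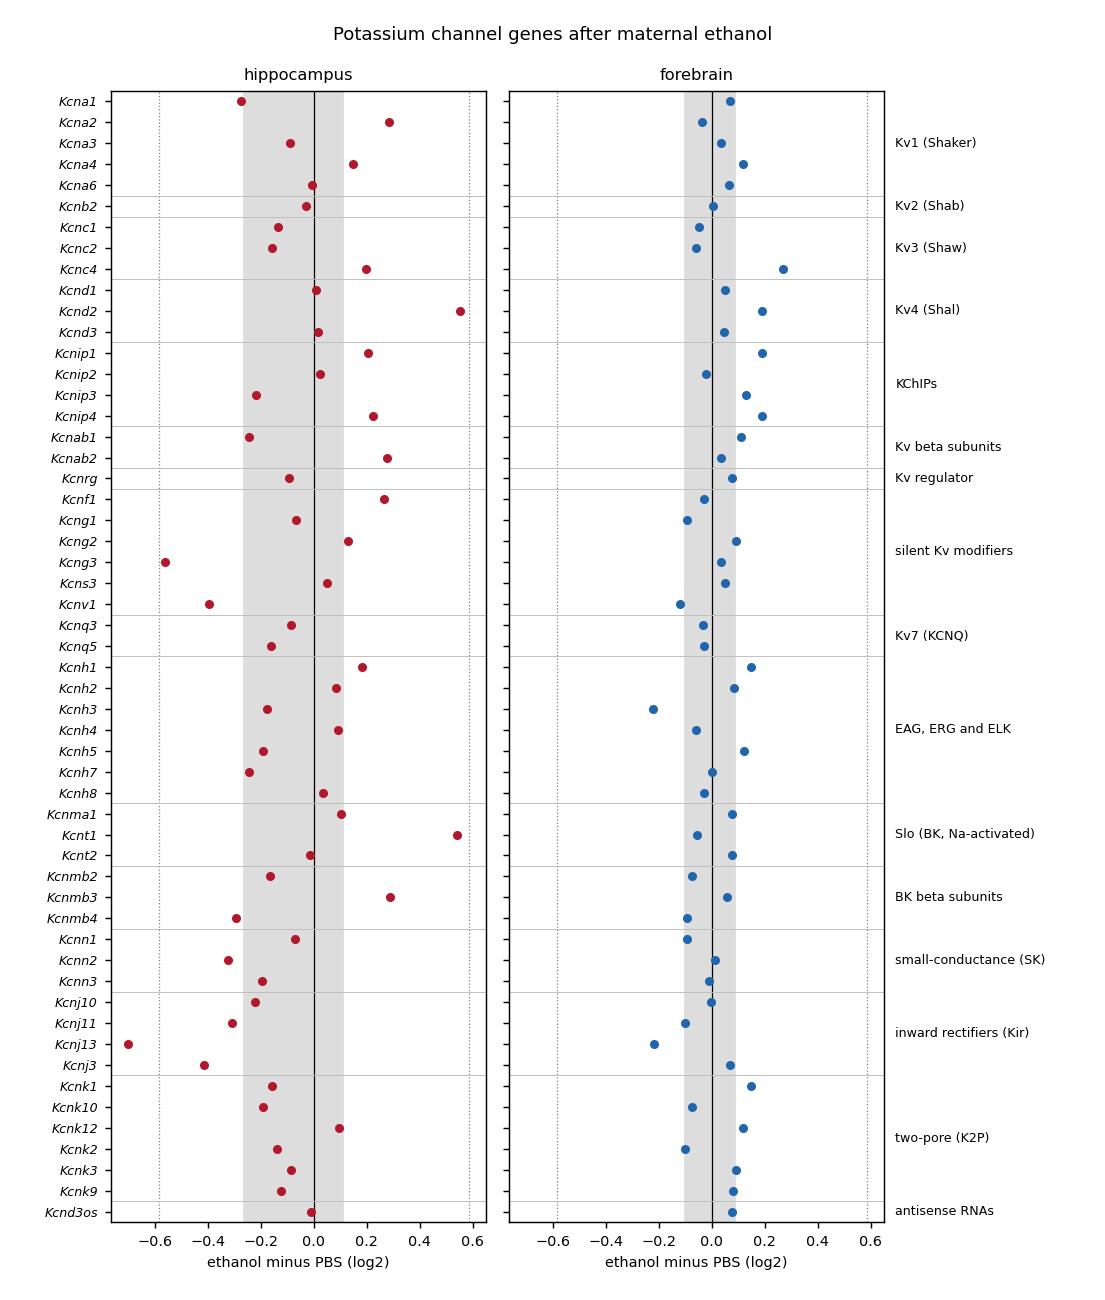
Ethanol minus PBS difference on the log2 scale for the 54 potassium channel genes at or above the filter, in hippocampus (left) and forebrain (right), grouped by family. Each point is the difference of 2 arrays, the grey band is the median of all 11013 genes plus or minus 1 SD, and dotted lines mark 1.5-fold. Kcnj13 alone passes the dotted line in hippocampus, and no gene does in forebrain.

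Kcnd2 had the highest ethanol difference of any potassium channel gene in hippocampus. It encodes a pore subunit of the Kv4 (Shal) family, which carries the fast, transient A-type current of neuronal dendrites. Kcnd2 read 9.81 in hippocampus after ethanol, against 9.26 in hippocampus after PBS, a difference of 0.55. In forebrain it read 9.90 after ethanol, against 9.71 after PBS, a difference of 0.19. The hippocampus PBS array was the low one of the 4, and the others lay within 0.19 of each other. Of all 11013 genes, 0.654% had a difference at least as high in hippocampus and 2.18% had one at least as high in forebrain. The other Kv4 pore genes barely differed after ethanol: Kcnd1 had differences of 0.01 in hippocampus and 0.05 in forebrain, and Kcnd3 had 0.01 and 0.04.

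Kv4 channels reach the surface together with KChIPs, small calcium-binding proteins encoded by Kcnip genes, and with the inactive peptidase-like membrane proteins Dpp6 and Dpp10. Kcnip1 read 7.70 in hippocampus after ethanol, against 7.50 after PBS, and 7.996 in forebrain after ethanol, against 7.81 after PBS. Kcnip4 followed the same pattern, with 7.39 after ethanol and 7.17 after PBS in hippocampus, and 7.81 after ethanol and 7.62 after PBS in forebrain. Each of these 2 genes was thus about 0.2 higher after ethanol in both tissues (0.21 and 0.19 for Kcnip1, 0.22 and 0.19 for Kcnip4). Kcnip2 differed by 0.02 and -0.02. Kcnip3, whose product (DREAM or calsenilin) also acts as a transcriptional repressor, had differences of opposite sign, at -0.22 in hippocampus and 0.13 in forebrain.

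The partner gene Dpp6 read 9.83 in hippocampus after ethanol, against 9.35 after PBS, and 9.82 in forebrain after ethanol, against 9.65 after PBS. For Dpp10 the hippocampus values were 8.49 after ethanol and 8.23 after PBS, and the forebrain values 8.89 after ethanol and 8.74 after PBS. Of the 9 genes of this complex (3 Kcnd, 4 Kcnip, Dpp6 and Dpp10), 7 were higher after ethanol in both tissues, where 19.1% of all genes were, with a median of 0.21 in hippocampus and 0.15 in forebrain. The group was assembled after these values were seen. The 7 include Kcnd1 and Kcnd3, at only 0.01 each in hippocampus. The count was also 7 with arrays centred and after quantile normalization. More of all genes then read higher in hippocampus, 56.4% with arrays centred and 45.1% after quantile normalization, against 30.7% as deposited. The share of all genes higher in both tissues was not computed for those scalings, so the unchanged count has no background beside it. Over all 11013 genes the medians were -0.08 and -0.01. The plot of the Kv4 complex by array shows that the gap between ethanol and PBS was widest for Kcnd2 and Dpp6 in hippocampus, where the PBS array was lowest. Striatal markers were higher after ethanol for 9 of 9 genes in hippocampus and 3 of 9 in forebrain, and thalamic markers for 6 of 7 and 7 of 7. Their part in the result was not tested.

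**Figure D2:**
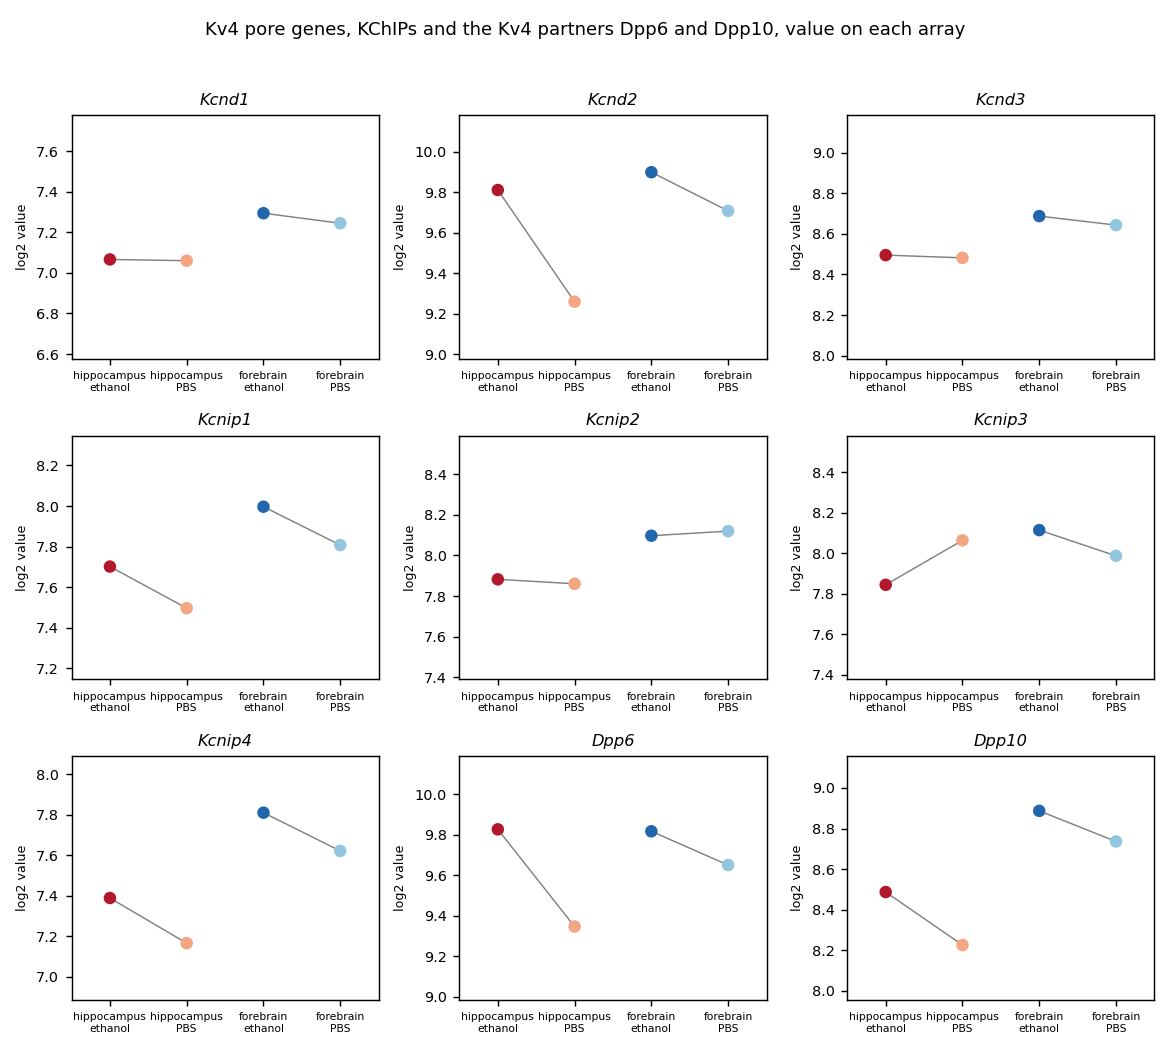
Log2 value on each of the 4 arrays for the Kv4 pore genes, the KChIP genes and Dpp6 and Dpp10, with ethanol left of PBS in each tissue and a line joining the 2 arrays of a tissue. Every panel spans the same range of 1.2 log2 units. Kcnd2, Kcnip1, Kcnip4, Dpp6 and Dpp10 slope the same way in both tissues, and Kcnip3 slopes opposite ways.

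The promoter windows of the genes at the upper and lower end of the hippocampus comparison, Kcnd2 and Kcnj13, are shown because they differ in composition. They are from RefSeq, build GRCm38.p6, and run from 250 bases before to 50 after the start site, on the strand of the gene. Kcnd2 lies at chr6:21215096-21215395 on the plus strand and Kcnj13 at chr1:87394680-87394979 on the minus strand. Capitals mark matches on either strand. The motifs searched were the TATA box letters TATAAA, the box named for its letters CCAAT, and the GC box letters GGGCGG, and no matches overlap here.
Kcnd2: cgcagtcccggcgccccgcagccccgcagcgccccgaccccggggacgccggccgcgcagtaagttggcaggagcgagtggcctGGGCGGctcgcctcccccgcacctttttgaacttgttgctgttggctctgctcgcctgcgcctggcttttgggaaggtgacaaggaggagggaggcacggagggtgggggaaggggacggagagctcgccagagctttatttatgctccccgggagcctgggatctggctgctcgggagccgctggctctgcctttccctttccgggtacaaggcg
Kcnj13: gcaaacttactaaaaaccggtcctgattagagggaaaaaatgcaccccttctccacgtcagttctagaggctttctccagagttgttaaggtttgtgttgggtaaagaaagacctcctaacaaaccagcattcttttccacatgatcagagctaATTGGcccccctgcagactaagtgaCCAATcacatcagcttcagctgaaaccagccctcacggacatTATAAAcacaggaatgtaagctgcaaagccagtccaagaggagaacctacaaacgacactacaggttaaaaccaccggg
The Kcnd2 window holds 26 CpG dinucleotides and 68.7% G and C, with 1 GGGCGG. The Kcnj13 window holds 5 CpG and 46% G and C, with TATAAA starting 29 bases before the start site and CCAAT on each strand further upstream. All 32851 promoter windows of this length had a median of 7 CpG and 52.7% G and C, and 13.6% held TATAAA, 37.4% CCAAT and 35.7% GGGCGG on either strand. These matches describe the letters only.

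Among the Shaker (Kv1) pore genes, the axonal channel gene Kcna2 read 7.71 after ethanol and 7.43 after PBS in hippocampus, a difference of 0.28, and -0.04 in forebrain. Its second probe set disagreed, at -0.16 in hippocampus and 0.05 in forebrain, so no direction can be given for Kcna2. Kcna1, the other main axonal subunit, read 7.03 after ethanol and 7.31 after PBS in hippocampus, and 7.10 after ethanol and 7.03 after PBS in forebrain. Kcna1 was above the filter only through the hippocampus PBS array, so its being lower after ethanol in hippocampus follows from the filter. Kcna4, an A-type Shaker subunit, was higher by 0.15 in hippocampus and 0.12 in forebrain. The remaining Shaker genes above the filter, Kcna3 and Kcna6, lay between -0.09 and 0.06 in either tissue.

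The Shaw (Kv3) genes give the fast-repolarizing channels of rapidly firing neurons. Kcnc4 had the highest forebrain difference of all 54 members, with 8.001 after ethanol and 7.73 after PBS, a difference of 0.27 that 0.645% of all genes reached. In hippocampus Kcnc4 read 7.64 after ethanol and 7.45 after PBS. Its relatives had the opposite sign: Kcnc1 was at -0.13 in hippocampus and -0.05 in forebrain, and Kcnc2 at -0.16 and -0.06. The Shab gene Kcnb2 stayed within 0.03 of 0 in both tissues, at -0.03 and 0.00, and the M-current genes Kcnq3 and Kcnq5 were at -0.09 and -0.16 in hippocampus and at -0.03 each in forebrain. With arrays centred the hippocampus value of Kcnq3 was 0.01.

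Silent Kv subunits form no channel alone and join Shab pores to change their gating. Kcng3 read 6.77 in hippocampus after ethanol, against 7.34 after PBS, a difference of -0.56, and 7.23 and 7.20 in forebrain. The hippocampus ethanol array was the low one and lay under the filter value. Kcnv1 read 7.61 in hippocampus after ethanol and 8.001 after PBS, with 8.03 and 8.15 in forebrain, so that it was lower after ethanol in both tissues (-0.40 and -0.12). Kcnf1 read 7.37 after ethanol and 7.11 after PBS in hippocampus, against 7.69 and 7.72 in forebrain. Here the hippocampus PBS array was farthest from the rest and lay just under the filter value. The other members above the filter, Kcng1, Kcng2 and Kcns3, lay between -0.07 and 0.13 in hippocampus.

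Among the 7 EAG, ERG and ELK genes, all of which passed the filter, 4 were higher and 3 lower after ethanol in hippocampus. Of all genes, 30.7% were higher and 69.3% lower. Kcnh1, the ether-a-go-go channel gene, was higher by 0.18 in hippocampus and 0.15 in forebrain. Kcnh3 (ELK group) was lower in both, at -0.18 and -0.22, and its forebrain difference was the lowest of the members, close to that of Kcnj13. Kcnh7, an ERG channel gene, read 8.97 after ethanol and 9.22 after PBS in hippocampus, and 9.23 on both forebrain arrays. Of the cytoplasmic Kv beta subunits, Kcnab2 was at 0.28 in hippocampus (7.99 after ethanol and 7.72 after PBS) and 0.04 in forebrain, while Kcnab1 was at -0.24 and 0.11. Kcnrg, which encodes a soluble regulator of Kv assembly, was at -0.09 and 0.08, and the hippocampus value became 0.01 with arrays centred.

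The sodium-activated channel gene Kcnt1 (Slack) had a hippocampus difference of 0.54. It read 8.31 after ethanol, against 7.77 after PBS, in hippocampus, and 8.21 after ethanol, against 8.27 after PBS, in forebrain. The PBS hippocampus array was low and the other 3 lay together, so the difference rests on that array. Its relative Kcnt2 (Slick) was at -0.02 and 0.07, and Kcnma1, the pore of the large-conductance calcium-activated (BK) channel, at 0.10 and 0.08. BK beta subunit genes were divided in hippocampus: Kcnmb3 read 7.41 after ethanol and 7.12 after PBS, while Kcnmb4, the main neuronal beta subunit, read 8.10 after ethanol and 8.40 after PBS. Kcnmb4 was lower by less in forebrain, at 8.34 after ethanol and 8.43 after PBS.

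All 3 small-conductance (SK) genes above the filter, which produce the afterhyperpolarization, were lower after ethanol in hippocampus, where 69.3% of all genes were. Kcnn2 read 8.52 after ethanol and 8.84 after PBS, with 8.52 and 8.51 in forebrain, which makes the hippocampus PBS array the high one. Kcnn3 was at -0.19 and Kcnn1 at -0.07, and Kcnn1 turned to 0.03 with each array centred. In forebrain the SK genes lay between -0.10 and 0.01.

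Of 15 inward rectifier genes, 4 were above the filter, and these 4 were lower after ethanol in hippocampus, with a median of -0.36, where 69.3% of all 11013 genes were lower. Over all 15, with no filter, the median was 0.063. Kcnj10 was above the filter only through the hippocampus PBS array, so its being lower after ethanol follows from the filter and adds nothing to the count. Kcnj13 encodes the Kir channel of choroid plexus epithelium. It read 7.21 in hippocampus after ethanol, against 7.91 after PBS, a difference of -0.70, and 7.33 in forebrain after ethanol, against 7.55 after PBS, a difference of -0.22. In hippocampus 0.154% of all genes were at least as low, and in forebrain 1.33%. Choroid plexus markers were lower in hippocampus too, for 6 of 6 genes with a median of -0.29, and among them Clic6 was at -0.48 and Ttr at -0.20. In forebrain the same markers were higher for 5 of 6 genes, with a median of 0.07, while Kcnj13 was lower. Their part in the Kcnj13 result was not tested. Kcne2, an accessory subunit also known from the choroid plexus, lay below the filter, at 6.67 after ethanol and 7.06 after PBS in hippocampus and at 6.29 and 6.45 in forebrain.

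Kcnj3 encodes a G-protein-gated inward rectifier that lets transmitters silence neurons. It read 7.84 in hippocampus after ethanol, against 8.25 after PBS, and 8.30 and 8.24 in forebrain, so the ethanol hippocampus array was the low one. Kcnj11 encodes the pore of the neuronal ATP-sensitive channel. It read 7.99 in hippocampus after ethanol, against 8.30 after PBS, and 8.002 in forebrain after ethanol, against 8.10 after PBS. Abcc8, the gene of its sulfonylurea receptor subunit, had differences of the same sign, at 7.87 after ethanol and 8.24 after PBS in hippocampus and 7.96 and 8.03 in forebrain. For both subunits the hippocampus PBS array was the high one. The vascular ATP-sensitive pair, Kcnj8 and Abcc9, was at 0.19 (below the filter) and -0.25 in hippocampus. Astrocyte markers were higher after ethanol for 7 of 7 genes in hippocampus. The astrocyte channel gene Kcnj10 was at -0.22 in hippocampus, which follows from the filter and cannot be set against these markers. In forebrain Kcnj10 was at -0.0041. Its partner Kcnj16 (5.78 after ethanol and 5.75 after PBS in hippocampus) and the blood and immune cell channel gene Kcnn4 (6.45 and 6.18) lay below the filter.

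**Figure D3:**
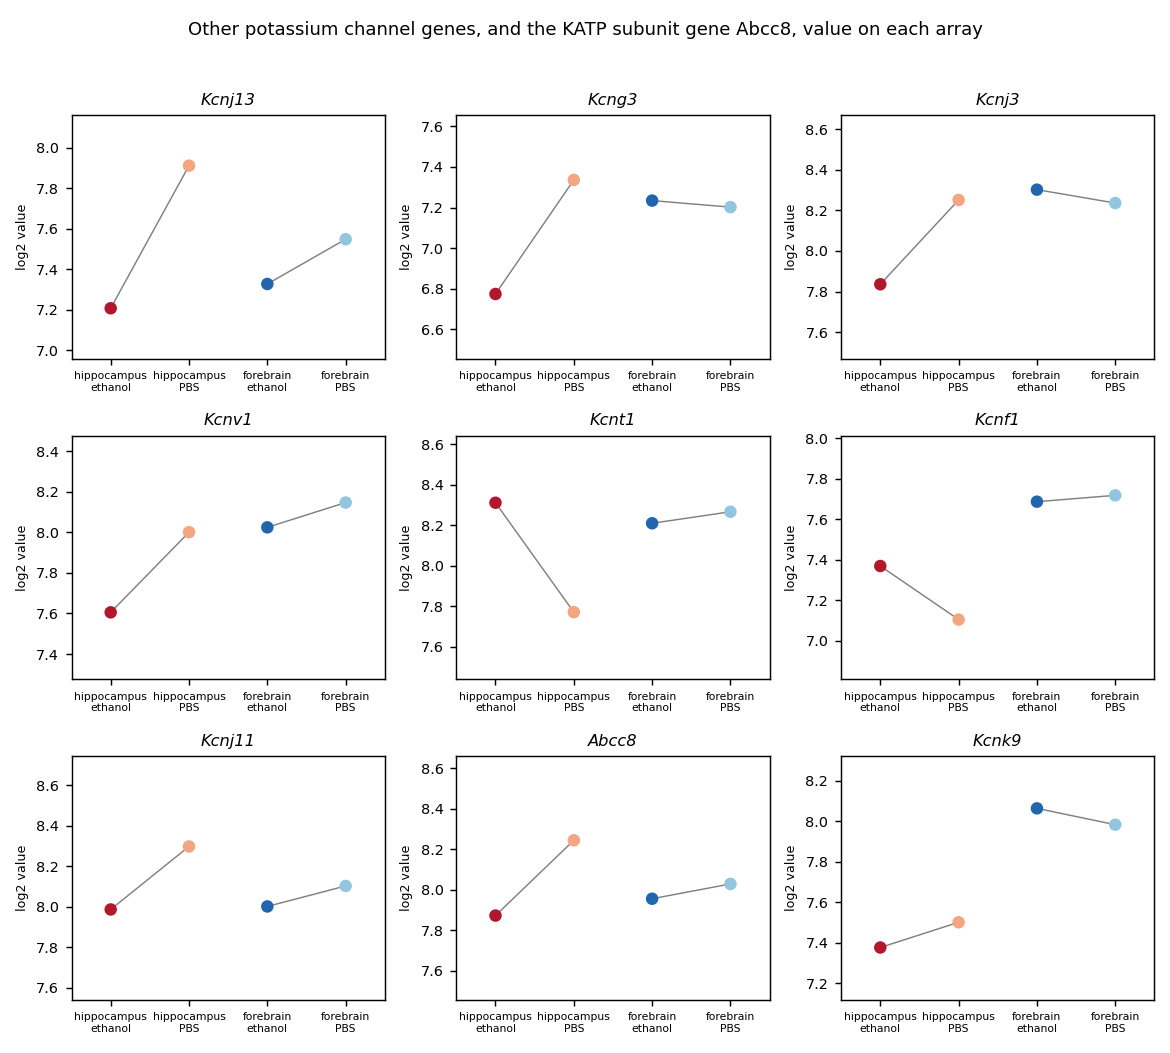
Log2 value on each of the 4 arrays for potassium channel genes with large differences outside the Kv4 group, and for Abcc8, with ethanol left of PBS in each tissue. Panels span 1.2 log2 units. The hippocampus ethanol array is low for Kcng3, Kcnj3 and Kcnv1, the hippocampus PBS array is low for Kcnt1 and Kcnf1 and high for Kcnj13, Kcnj11 and Abcc8, and both hippocampus arrays are low for Kcnk9.

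The K2P leak channel genes differed little after ethanol. Of 6 above the filter, 5 were lower in hippocampus (4 with arrays centred), with a median of -0.13 (-0.03 with arrays centred). In forebrain 4 were higher, with a median of 0.08. As deposited, 69.3% of all genes were lower in hippocampus and 46.1% higher in forebrain. With arrays centred, 56.4% of all genes were higher in hippocampus. Kcnk10, a mechanically gated and lipid-sensitive channel gene, was at -0.19 and -0.08, and its relative Kcnk2 at -0.14 and -0.10. Kcnk1 read 8.75 after ethanol and 8.91 after PBS in hippocampus, against 8.87 and 8.72 in forebrain. The antisense RNA Kcnd3os was at -0.01 and 0.07. The arrays' strand use is not given, so it cannot be set apart from Kcnd3.

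Forebrain differences after ethanol were small throughout, between -0.22 and 0.27. No member was 1.5-fold apart, where 0.0454% of all genes were that much higher and 0.0272% that much lower, and none was past 0.32 on the log2 scale either way (0.336% and 0.191% of all genes). The median was 0.03, with 32 higher and 22 lower, against -0.01 for all genes, of which 46.1% were higher. In 31 of 54 members the sign was the same in both tissues, a share of 57.4%, near the 61.4% of all 11013 genes. Of the members that differed in sign, 17 were lower in hippocampus and higher in forebrain, and 6 the reverse. Over all 11013 genes these counts were 2971 and 1270.

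A limma fit with terms for treatment and tissue gave the test of ethanol across all 4 arrays. The fit has 1 residual degree of freedom, so a response that differs between the tissues counts as error. No member rose or fell at a Benjamini-Hochberg adjusted p of 0.05, where 0% of all genes were called. At an unadjusted p of 0.05 limma had 4 members higher, Kcnd2, Kcnc4, Kcnip4 and Kcnip1, against 3.41% of all genes, and 3 lower, Kcnj13, Kcnv1 and Kcnh3, against 6.36%. These are 7.41% and 5.56% of the 54. With arrays centred, 6 members were higher and 2 lower at that threshold, beside 7.91% and 2.96% of all genes. The estimate was 0.37 for Kcnd2 (SE 0.0929) and -0.46 for Kcnj13 (SE 0.121), each with a limma adjusted p of 0.51.

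Between hippocampus and forebrain, the members past an unadjusted threshold were lower in hippocampus. In limma, over both treatments, 16 of 54 members were lower in hippocampus at an unadjusted p of 0.05 and 0 were higher, that is 29.6% lower, where 11.9% of all genes were lower and 3.27% higher. With each array centred on its median, the counts were 13 lower and 1 higher among members, beside 8.23% and 9.19% of all genes. After Benjamini-Hochberg adjustment over all genes, limma called 1 member lower, Kcnk9, and 0 higher, where 1.02% of all genes were called lower and 0.109% higher. Hippocampus arrays enter both this comparison and the ethanol comparison, so the values of each are given side by side and not related to each other.

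Kcnk9 encodes an acid-sensitive K2P leak channel and is imprinted in brain. It read 7.38 in hippocampus and 8.06 in forebrain after ethanol, and 7.50 in hippocampus and 7.98 in forebrain after PBS. Kcnk9 fell by 0.58 in hippocampus relative to forebrain on the log2 scale (limma SE 0.0903, adjusted p = 0.0417), and both hippocampus arrays were below both forebrain arrays. It was also 1.5-fold lower in the ethanol arrays, the only such member, beside 0.536% of all genes, while 0 members and 0.154% of all genes were 1.5-fold higher. The adjusted p was 0.0501 with arrays centred, 0.0728 with no filter and 0.0612 without the trend in eBayes, so the call depends on these settings.

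The 16 members below that unadjusted threshold were spread over 8 families, and differences between families were not tested. All 3 Shaw genes were among them (Kcnc1, Kcnc2 and Kcnc4, at -0.19, -0.32 and -0.32), 3 of 4 KChIP genes (Kcnip1, Kcnip2 and Kcnip4, at -0.30, -0.24 and -0.44), and 2 of 3 Kv4 genes (Kcnd1 at -0.21 and Kcnd2 at -0.27). Of the 3 Slo genes, Kcnt2 was at -0.36 and Kcnma1 at -0.23, of the 5 Shaker genes, Kcna6 was at -0.29 and Kcna3 at -0.23, and of the 6 silent subunit genes, Kcnf1 was at -0.47 and Kcnv1 at -0.28. Kcnmb2, a BK beta subunit gene, was at -0.26. Limma's adjusted p for those of the 16 other than Kcnk9 lay between 0.0673 and 0.328. Both hippocampus arrays of Kcnd1 lay under the filter value (7.07 after ethanol and 7.06 after PBS), so it passed the filter through forebrain alone and its being lower in hippocampus follows from the filter. Kcnd2 was at -0.09 in the ethanol arrays and -0.45 in the PBS arrays, so its estimate rests mostly on the low hippocampus PBS array.

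Kcnip4 read 7.39 in hippocampus and 7.81 in forebrain after ethanol, and 7.17 and 7.62 after PBS, differences of -0.42 and -0.46. Kcnt2 read 7.92 in hippocampus and 8.32 in forebrain after ethanol, and 7.93 and 8.24 after PBS. Kcnf1 was 1.5-fold lower in hippocampus in the PBS arrays, at 7.11 against 7.72 in forebrain, where 1.19% of all genes were that much lower. That hippocampus PBS reading lay just under the filter value. In the ethanol arrays Kcnf1 read 7.37 against 7.69. In the PBS arrays 0 members were 1.5-fold higher, beside 0.0908% of all genes. In each of these genes both hippocampus arrays lay below both forebrain arrays.

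The members with the highest tissue differences were not alike in the treatments. Kcnmb3 was higher in hippocampus by 0.25 in the ethanol arrays and by 0.02 in the PBS arrays, while Kcnn2 was at -0.0027 and 0.33. Kcnn1 was higher in both, by 0.13 and 0.10, and Kcnj13 was at -0.12 and 0.36. Kcna1 was at -0.07 and 0.27, and the first of these turned to 0.02 with arrays centred. Since Kcna1 was above the filter only through the hippocampus PBS array, its being higher there follows from the filter. In the ethanol arrays 11 members were higher in hippocampus and 43 lower (25 and 29 with arrays centred), where as deposited 30.4% of all genes were higher and 69.6% lower. In the PBS arrays 24 were higher and 30 lower (24 and 30), where 52.4% of all genes were higher and 47.5% lower. With arrays centred, 57.6% of all genes were higher in hippocampus in the ethanol arrays and 55.5% in the PBS arrays. Past 0.32 on the log2 scale, 9 members were lower and 0 higher in the ethanol arrays, beside 5.48% and 1.2% of all genes, and 5 were lower and 2 higher in the PBS arrays, beside 4.57% and 1.53%. Meningeal and endothelial markers were lower in hippocampus for all 6 genes of each list above the filter, in both treatments. General neuron markers were lower for 9 of 9 in the ethanol arrays (4 with arrays centred). In the PBS arrays they were lower for 7 of 9 (5 with arrays centred). Their part in these differences was not tested.

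**Figure D4:**
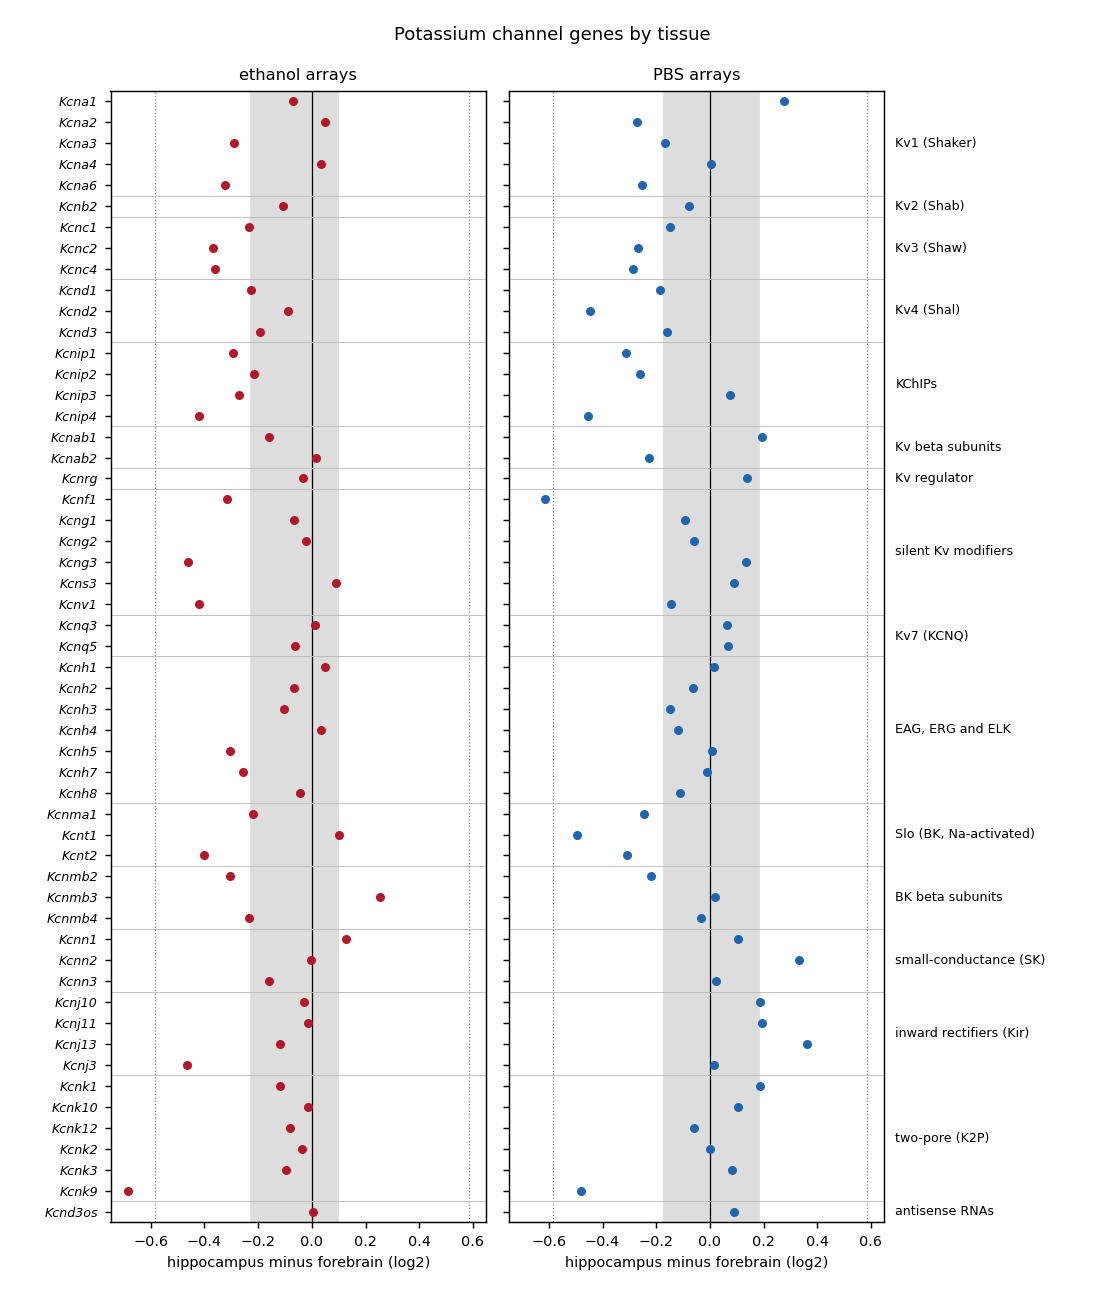
Hippocampus minus forebrain difference on the log2 scale for the 54 potassium channel genes at or above the filter, in the ethanol arrays (left) and the PBS arrays (right), grouped by family. Each point is the difference of 2 arrays, the grey band is the median of all 11013 genes plus or minus 1 SD, and dotted lines mark 1.5-fold. The Shaw and Kv4 genes lie left of 0 on both sides (with arrays centred, 1 Kv4 gene is right of it in the ethanol arrays), the Slo genes do so except Kcnt1 in the ethanol arrays, and Kcnk9 lies farthest left in the ethanol arrays and Kcnf1 in the PBS arrays.

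Genes outside the Kcn nomenclature that serve the same currents were followed as well. Of 16 potassium channel partner genes above the filter, 8 were higher and 8 lower after ethanol in hippocampus (median 0.03). In forebrain 10 were higher and 6 lower (median 0.03). Of all genes, 30.7% were higher in hippocampus and 46.1% in forebrain. With arrays centred, 10 partners were higher and 6 lower in hippocampus, where 56.4% of all genes were higher. Limma called 0 of these partners for ethanol after adjustment. At an unadjusted p of 0.05 it had 4 higher and 1 lower, where 3.41% of all genes were higher and 6.36% lower. The largest hippocampus differences were those of Cntn2 at -0.57, an axonal adhesion molecule that clusters Shaker channels, of Dpp6 at 0.48, and of Cntnap2, the Caspr-type partner of Cntn2, at 0.45. Between tissues limma called Dpp10, which fell by 0.46 in hippocampus relative to forebrain (adjusted p = 0.0497, and 0.0685 with arrays centred).

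Sodium pumps build the potassium gradient, and cation-chloride cotransporters run on it or on the sodium gradient. Of 6 measured pump and cotransporter genes, 4 were higher after ethanol in hippocampus (median 0.20) and 5 in forebrain (median 0.05). Of all genes, 30.7% were higher in hippocampus and 46.1% in forebrain. Limma called 0 of the 6 for ethanol after adjustment. Slc12a5, the neuronal potassium-chloride cotransporter gene whose rise accompanies neuronal maturation, read 9.02 in hippocampus after ethanol, against 8.40 after PBS, and 9.51 in forebrain after ethanol, against 9.36 after PBS. Atp1b1, a sodium pump beta subunit gene, was at 0.43 and 0.19, and the cotransporter gene Slc12a7 at -0.33 and 0.02. Between tissues Slc12a5 fell by 0.73 in hippocampus (limma adjusted p = 0.0394, and 0.0621 with arrays centred). Atp1b2, another sodium pump beta subunit gene, fell by 0.44 (limma adjusted p = 0.0472, and 0.0707 with arrays centred). The 3 measured HCN genes, which encode cation channels opened by hyperpolarization, were lower in hippocampus than forebrain in both treatments. So were 4230 of all 11013 genes, and in the PBS arrays Hcn3 and Hcn4 differed by only -0.01 and -0.06. Ethanol minus PBS in hippocampus was 0.26 for Hcn2, -0.21 for Hcn3 and -0.03 for Hcn4.

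The 38 members below the filter comprised all 5 MinK-related subunit genes, 11 of 15 Kir genes, 8 of 14 K2P genes and 4 of 10 silent subunit genes, with 10 from other families. Their ethanol differences ran from -0.43 to 0.38 in hippocampus and from -0.37 to 0.46 in forebrain, with medians of 0.10 and 0.04. The lowest in hippocampus was that of Kcnj2, a strong inward rectifier gene, at 6.59 after ethanol and 7.03 after PBS. The highest in forebrain was that of Kcnj14, another Kir gene, at 6.69 after ethanol and 6.23 after PBS. These genes were chosen for mention after their values were seen. At such readings a difference can hold background as well as transcript.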

How the data were processed

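Potassium channel genes were compared on 4 arrays of fetal mouse brain, whose titles give the tissue and the treatment. Log2 signals were used as the authors deposited them. MAS5 is the method that the submitters' processing notes name. The version, the background correction and the scaling of arrays are not stated by any source used here. The log base was read from the values, since as natural logs the highest would exceed what a 16-bit scanner records. Probe sets with 1 symbol in the platform annotation were used, and all 92 members matched a RefSeq table of assembly GRCm38.p6 by gene identifier, with 0 symbols changed. Each gene was represented by its brightest probe set on average, and entered the tests if that average was at least 7.11, the median over all probe sets.

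Arrays of 1 group each were compared by differences, counted at 1.5-fold without a test. Limma 3.58.1 in R 4.3.3 fitted treatment and tissue as additive terms to all 11013 genes, with a trend in eBayes and Benjamini-Hochberg adjustment. The fit was also run on simulated data, with ethanol changes equal in both tissues and noise at the forebrain spread. That setting does not represent responses that differ between tissues, or the wider hippocampus spread. P-values reflect only how these arrays scatter, which may be technical. Figures were drawn with matplotlib 3.10.9, and tables were handled with pandas 2.3.3 and numpy 2.4.6 under Python 3.11.15. Alternatives were centred arrays, quantile normalization, other filters, folds and choices of probe set, and eBayes without trend.

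Members, families, partner lists and markers were chosen with earlier results of these data known. Genes named are, among members above the filter, the 6 highest and 6 lowest ethanol differences in hippocampus, 4 and 4 in forebrain, 5 and 5 between tissues, limma's calls, the largest hippocampus difference in each family, 3 per partner list, and 6 channels of non-neuronal cells whatever their values. Others were named to complete a family after their values were seen, and the 9-gene Kv4 group was assembled then too. Kcn genes without a probe set in this annotation were not analysed here.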

Additional observations from a re-analysis of the deposited data

Results flagged for a closer look

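Potassium channel genes whose ethanol difference had opposite signs in the tissues, by more than 1 SD of all genes in each, were Kcnab1 (-0.244 in hippocampus and 0.109 in forebrain), Kcnh5, an EAG channel gene (-0.191 and 0.122), and Kcnip3 (-0.219 and 0.127). Each tissue has 1 array per treatment, so these differences between tissues were not tested. The SD over all 11013 genes was 0.187 in hippocampus and 0.0941 in forebrain. With arrays centred the hippocampus differences were -0.145 for Kcnab1, -0.0915 for Kcnh5 and -0.120 for Kcnip3, all within 1 SD, so none of the 3 then met that limit.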

How the results depend on the processing

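No paired analysis was possible because each group holds 1 array and the labels give no replicate numbers. In hippocampus the count of members 1.5-fold higher after ethanol, 0 as deposited, was 2 with arrays centred, 2 after quantile normalization and 2 past 0.32 on the log2 scale. The share of all genes that much higher, 0.49% as deposited, was 1.05% with arrays centred and 3.17% past 0.32. It also rose after quantile normalization. The count of members lower, 1 as deposited, was 0 with the 75th percentile filter, which leaves 10 members, 5 past 0.32 and 0 at 2-fold. The median of -0.08 became 0.0201 with arrays centred and 0.0175 with no filter, and the forebrain median of 0.03 became -0.00589 with the 75th percentile filter. Between tissues, the 1 member 1.5-fold lower in hippocampus became 0 with the 75th percentile filter, 9 past 0.32 and 0 at 2-fold in the ethanol arrays, and 0, 5 and 0 in the PBS arrays. The PBS count higher in hippocampus, 0, became 1 with no filter and 2 past 0.32, and the PBS median of -0.06 became 0.0130 with the 75th percentile filter. Limma's 1 call between tissues became 0 with arrays centred, 0 with the 75th percentile filter (which leaves Kcnk9 out), 0 with no filter and 0 without the trend. After quantile normalization it became 5 (Kcnc2, Kcnf1, Kcnip4, Kcnk9 and Kcnt2). Calls over all 11013 genes moved as well. Limma called 112 lower in hippocampus as deposited, 346 after quantile normalization, 45 with arrays centred and 25 without the trend. The causes were not tested, beyond the members a stricter filter removes. Leaving out an array ends the comparison it belongs to, so that was not run.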
